A study of Mus musculus with 30 samples.

Results

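The regions described here are 224 stretches of mouse chromatin marked by H3K9me3, trimethylation of lysine 9 of histone H3, that lie over genes for odorant and pheromone receptors. They were chosen by measured values: regions deposited for 6 ChIP-seq libraries were joined on an overlap of at least 1 bp, and merged regions on chromosomes 1 to 19 were selected on being shorter than 30 kb, called in at least 2 libraries and over a gene named Olfr, Vmn1r or Vmn2r plus a number. These 224 were among 33539 merged regions of the same length and library minimum, 44431 merged regions of any kind on chromosomes 1 to 19, and 49152 on all chromosomes. By family, 88 lay over Olfr genes, 49 over Vmn1r genes and 87 over Vmn2r genes, and 0 regions touched genes of more than 1 family. The calls and the enrichment over input were used in choosing the regions, so differences between the families in these values are descriptions and carry no test.

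The study concerns ETV2, an ETS-family transcription factor of early blood and endothelial development, and KDM4A, a histone demethylase that acts on H3K9. The labels call every sample an embryonic stem cell sample of the mouse. The ChIP groups were 3 libraries treated with DOX (doxycycline) and 3 controls, and no cell line was named for them. DOX replicate 1 was titled EB-DOX-D2, replicate 2 EB-DOX-D3 and replicate 3 EB-Er71-Flag-DOX-D2, so the DOX replicates differed in their titles, while the controls were titled EB-noTreat1 to EB-noTreat3. RNA-seq covered 6 groups of 3: the line iETV2 without and with DOX, the line iETV2-KDM4A (H188A) without and with DOX, here called the H188A line, and a KDM4A/4C DKO (double knockout) genotype with its control. The labels gave neither how many clones stood behind a line nor whether replicates were separate cultures, so p-values measured only the spread between these samples, which may be technical.

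Odorant receptors (Olfr) are G-protein-coupled receptors of olfactory sensory neurons, each of which expresses a single receptor gene out of a very large family. Vmn1r and Vmn2r genes encode the pheromone receptors of the vomeronasal organ: Vmn1r receptors, like Olfr, are encoded by compact genes with an intronless coding region, whereas Vmn2r receptors have a large extracellular domain spread over several exons. All 3 families stand in dense tandem clusters, and receptor genes are known to carry repressive H3K9 methylation in olfactory neurons, where choosing a receptor involves its local removal.

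The promoter windows that show what stands under these regions are printed first, from RefSeq on GRCm38.p6, each 300 bases around the annotated start, 5′ to 3′ on the gene's strand, with CpG dinucleotides in capitals. Olfr31 (chr14:14327863-14328162, plus strand) and Olfr784 (chr10:129387385-129387684, plus strand) were the Olfr windows wholly inside the strongest member regions. They are AT-rich, with a GC content of 31.7% and 30.7% and 3 and 1 CpG.
Olfr31: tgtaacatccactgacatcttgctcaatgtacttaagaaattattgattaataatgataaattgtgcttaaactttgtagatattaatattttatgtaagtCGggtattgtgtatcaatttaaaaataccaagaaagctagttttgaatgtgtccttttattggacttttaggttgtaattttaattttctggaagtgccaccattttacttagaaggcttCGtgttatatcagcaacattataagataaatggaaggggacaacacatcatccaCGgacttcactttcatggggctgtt
Olfr784: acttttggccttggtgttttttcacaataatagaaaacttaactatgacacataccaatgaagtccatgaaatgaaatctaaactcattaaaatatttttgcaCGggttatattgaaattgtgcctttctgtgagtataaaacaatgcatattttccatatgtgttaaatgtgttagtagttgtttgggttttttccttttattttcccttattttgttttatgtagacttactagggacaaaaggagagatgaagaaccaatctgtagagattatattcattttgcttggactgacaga
Vmn1r241 (chr7:20205558-20205857, minus strand) and Vmn1r113 (chr7:20787035-20787334, plus strand) lie in the large Vmn1r cluster of chromosome 7 and show how alike the marked Vmn1r promoters are. The Vmn1r241 window is identical, base for base, to that of Vmn1r117 at chr7:20884072-20884371, which lies under another member region.
Vmn1r241: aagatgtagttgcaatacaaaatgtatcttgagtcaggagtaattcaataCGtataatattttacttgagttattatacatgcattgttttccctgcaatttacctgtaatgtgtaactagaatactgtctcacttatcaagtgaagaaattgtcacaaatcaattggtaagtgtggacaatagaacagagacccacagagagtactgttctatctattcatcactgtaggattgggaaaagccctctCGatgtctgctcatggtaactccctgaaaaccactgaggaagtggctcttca
Vmn1r113: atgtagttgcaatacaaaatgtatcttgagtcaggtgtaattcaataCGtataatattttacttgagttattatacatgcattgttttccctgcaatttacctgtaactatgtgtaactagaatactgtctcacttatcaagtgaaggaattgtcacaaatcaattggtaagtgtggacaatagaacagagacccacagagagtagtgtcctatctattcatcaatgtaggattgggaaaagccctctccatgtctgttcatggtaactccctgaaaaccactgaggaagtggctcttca
Vmn2r104 (chr17:20048156-20048455, minus strand) lies under a strongly enriched member region. Its closest relative, Vmn2r124 (chr17:18049234-18049533, plus strand), matched it at 79.3% of positions and had no region over its window. Vmn2r29 (chr7:7278240-7278539, minus strand) is shown because its window lies wholly inside another of the strongest Vmn2r member regions. Unlike the other windows printed, it is CpG-rich, with 23 CpG and a GC content of 62.3%.
Vmn2r104: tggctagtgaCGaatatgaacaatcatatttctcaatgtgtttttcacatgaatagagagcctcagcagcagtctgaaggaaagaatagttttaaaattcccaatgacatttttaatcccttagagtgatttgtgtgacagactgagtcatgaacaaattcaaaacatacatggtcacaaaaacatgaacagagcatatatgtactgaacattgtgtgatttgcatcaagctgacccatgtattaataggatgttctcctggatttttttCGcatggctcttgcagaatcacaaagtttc
Vmn2r124: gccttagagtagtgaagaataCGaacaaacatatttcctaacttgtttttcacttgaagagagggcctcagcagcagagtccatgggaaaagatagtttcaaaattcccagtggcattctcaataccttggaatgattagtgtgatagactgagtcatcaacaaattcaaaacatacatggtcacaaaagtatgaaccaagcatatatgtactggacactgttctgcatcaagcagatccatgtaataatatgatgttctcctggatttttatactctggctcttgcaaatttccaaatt
Vmn2r29: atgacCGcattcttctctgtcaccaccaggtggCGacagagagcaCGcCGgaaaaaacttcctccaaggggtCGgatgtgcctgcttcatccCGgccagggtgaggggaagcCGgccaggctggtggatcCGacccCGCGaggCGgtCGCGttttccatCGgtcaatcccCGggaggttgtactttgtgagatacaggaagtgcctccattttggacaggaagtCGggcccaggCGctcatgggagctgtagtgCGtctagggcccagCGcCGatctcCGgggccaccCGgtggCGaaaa

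The families differed widely in how many of their genes were covered. A member region lay over 84 of 1111 Olfr genes (7.56%), 51 of 231 Vmn1r genes (22.1%) and 57 of 125 Vmn2r genes (45.6%). For comparison, regions under 30 kb in at least 2 libraries lay over 20.8% of all protein-coding genes. Gene length moved with these shares: the median annotated span was 951 bp for Olfr, 924 bp for Vmn1r and 24544 bp for Vmn2r, against 17491 bp for all protein-coding genes. Measured per base, such regions covered 9.71% of Olfr gene sequence, 14.4% of Vmn1r and 18.8% of Vmn2r, against 4.44% of protein-coding genes. On this length-free scale the order of the families was the same, and all 3 lay above the protein-coding value.

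**Figure D1:**
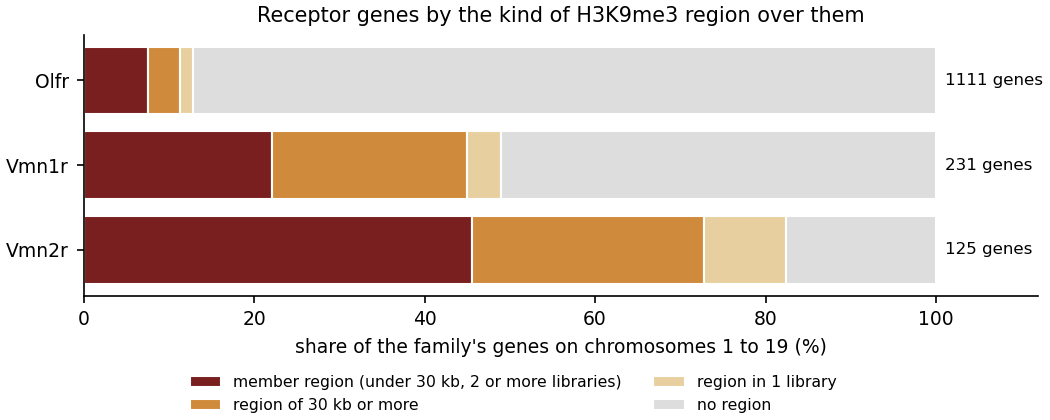
Share of each family's genes on chromosomes 1 to 19 (x axis, %) under a member region, a merged region of 30 kb or more, a region called in 1 library, or none. Genes with a member region made up 7.56% of Olfr, 22.1% of Vmn1r and 45.6% of Vmn2r genes.

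The start sites gave a different order. Of 300-base promoter windows, 47 of 938 Olfr windows (5.01%), 35 of 205 Vmn1r windows (17.1%) and 15 of 116 Vmn2r windows (12.9%) touched a region under 30 kb in at least 2 libraries, against 2.59% of windows of all protein-coding genes. Here Vmn1r stood highest. Of the 57 Vmn2r genes with a member region, only 2 lay wholly inside one, against 40 of 84 Olfr and 38 of 51 Vmn1r genes. The annotation used here gave gene spans without exons, so exonic and intronic positions were not separated.

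Merged regions of 30 kb or more, which the length limit left out, also covered receptor genes: 44 Olfr genes (3.96%), 53 Vmn1r genes (22.9%) and 43 Vmn2r genes (34.4%), against 3.26% of protein-coding genes. In all, 385 merged regions overlapped a receptor gene. Besides the 224 described here, 71 were under 30 kb but called in 1 library and 90 were 30 kb or longer. The longest regions just inside the limit were 29000 bp (over Vmn1r143 and Vmn1r251), 28000 bp (Vmn2r59) and 27800 bp (Vmn1r45), with mean log2 enrichments of 1.76, 1.27 and 1.50. Just outside it stood regions of 30200 bp (Vmn2r51), 30200 bp (Vmn1r69) and 30400 bp (Vmn1r180), with 1.64, 1.04 and 1.11, so the limit did not separate weakly from strongly enriched regions.

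Member regions were called in most libraries. All 6 libraries held 55 of the 88 Olfr regions (62.5%), 23 of the 49 Vmn1r regions (46.9%) and 49 of the 87 Vmn2r regions (56.3%), against 49.6% of all regions of the same length and library minimum. The median length was 8500 bp for Olfr, 11000 bp for Vmn1r and 7600 bp for Vmn2r regions, and the longest measured 27600, 29000 and 28000 bp. Nearly all covered a single receptor gene: 86 Olfr, 47 Vmn1r and 85 Vmn2r regions held 1, and the rest held 2. Enrichment is given as the deposited log2 ratio of ChIP to input, which the authors shifted by 1 constant per library. Averaged over the libraries that called a region, its median was 1.09 for Olfr regions, 1.43 for Vmn1r and 1.08 for Vmn2r, against 1.06 for all regions of the kind. Input counts per kb of region had medians of 22.4, 19.6 and 21.8, against 25.0 for all. Near-identical paralogs may share reads. How such reads were placed was not stated, and their part in the enrichment was not tested.

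Among Olfr regions called in all 6 libraries, the strongest lay over Olfr834 (chr9:18988201-18999200, mean log2 enrichment 1.92), Olfr31 (chr14:14325601-14345000, 1.84), Olfr784 (chr10:129385601-129406600, 1.80) and Olfr1055 (chr2:86339201-86347800, 1.79). Over Olfr834, the DOX libraries read 1.95, 1.88 and 1.60 and the controls 2.11, 2.00 and 1.97. The 3 controls were above the 3 DOX libraries there. Over Olfr31, whose promoter window is printed above, the DOX libraries read 2.07, 1.73 and 1.72 and the controls 1.59, 2.07 and 1.86, so the groups overlapped. The longest Olfr region, 27600 bp over Olfr1490 on chromosome 19, showed how merging sets a region's length: DOX libraries covered 12600, 7000 and 2400 bp of it and controls 7800, 25800 and 20600 bp. Its log2 enrichment was lower, with 1.15, 1.04 and 1.55 with DOX and 1.13, 1.17 and 1.12 in controls.

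Of the Vmn1r regions called in all 6 libraries, the 4 strongest stood in 1 cluster on chromosome 7. They lay over Vmn1r241 (chr7:20203201-20222400, mean log2 enrichment 1.85), Vmn1r113 (chr7:20777201-20795000, 1.83), Vmn1r149 (chr7:22420401-22445800, 1.81) and the pair Vmn1r143 and Vmn1r251 (chr7:22189401-22218400, 1.76). Over Vmn1r241, DOX libraries read 1.76, 1.71 and 1.86 and controls 1.54, 2.07 and 2.15. Control replicate 1 was lowest and control replicates 2 and 3 highest. Over Vmn1r143 and Vmn1r251, also the longest Vmn1r region, DOX libraries read 1.69, 1.39 and 1.64 and controls 1.66, 2.09 and 2.10, again with control replicates 2 and 3 on top.

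Among Vmn2r regions called in all 6 libraries, the strongest lay over Vmn2r11 (chr5:109049801-109051600, mean log2 enrichment 2.01), Vmn2r104 (chr17:20044201-20059800, 1.95), Vmn2r96 (chr17:18551801-18574600, 1.71) and Vmn2r29 (chr7:7277401-7283400, 1.60). The Vmn2r11 region is only 1800 bp long and rests on 54 to 147 ChIP counts per library. Its log2 enrichment was 1.98, 2.45 and 2.14 with DOX and 1.76, 1.56 and 2.17 in controls. Over Vmn2r104 all 6 libraries lay within a narrower range, with 2.12, 1.86 and 1.74 with DOX and 1.82, 2.04 and 2.12 in controls, on 687 to 1329 ChIP counts. The Vmn2r29 region also overlaps Clcn4, a gene for a chloride and proton exchanger. The longest Vmn2r region, over Vmn2r59 (chr7:42016801-42044800), had a mean of 1.27.

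Receptor genes of a family less than 1 Mb apart were joined into clusters. Olfr genes formed 48 clusters, of which 29 had at least 5 genes, Vmn1r genes 15, of which 8, and Vmn2r genes 18, of which 8. A member region lay in 24 Olfr, 9 Vmn1r and 14 Vmn2r clusters. Member regions were concentrated in Vmn1r: the 4 clusters with the most regions held 77.6% of the Vmn1r regions and 74.9% of the genes, so their share followed gene number. In Vmn2r such clusters held 59.8% of the regions and 43.2% of the genes, and in Olfr 36.4% and 40.0%.

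**Figure D2:**
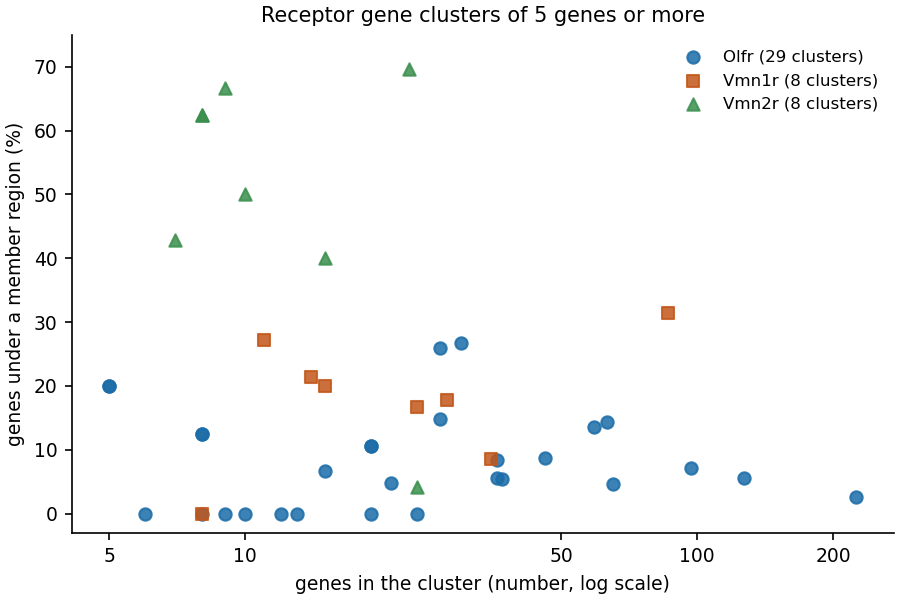
Each point is a cluster of at least 5 genes: genes in the cluster (x axis, log scale) against the share of them under a member region (y axis, %). The largest Olfr cluster, of 225 genes, stands at 2.67%, the largest Vmn1r cluster, of 86 genes, at 31.4%, and a Vmn2r cluster of 23 genes at 69.6%.

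The Vmn2r cluster on chromosome 17 (chr17:17703941-20596259, Vmn2r90 to Vmn2r110) held 27 member regions over 16 of its 23 genes (69.6%), the highest share of any cluster of at least 5 genes. Other Vmn2r clusters rich in regions stood on chromosome 7 (chr7:41399732-43048106, 9 regions over 5 of 8 genes, and chr7:84940169-87037968, 8 regions over 6 of 15) and chromosome 3 (chr3:64078172-64719602, 8 regions over 5 of 8). The largest Vmn2r cluster, with 24 genes on chromosome 7, had a member region over only 1 gene (4.17%) and regions of 30 kb or more covered the other 23. The Vmn1r cluster of chromosome 7 (chr7:20101158-24055691, Vmn1r91 to Vmn1r183) held 26 of the 49 Vmn1r regions, over 27 of 86 genes (31.4%), and regions of 30 kb or more covered another 36. The next Vmn1r clusters were small by comparison: 5 regions on chromosome 6 (chr6:56923914-58472878), 4 on chromosome 7 (chr7:10273828-13220289) and 3 on chromosome 13 (chr13:22087878-23250323).

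Olfr regions were thinly spread. The cluster of chromosome 19 (chr19:11828077-13919972) held 9 among 63 genes, those of chromosome 9 (chr9:37711348-40188094) and chromosome 10 (chr10:128989914-130211128) 8 each among 97 and 59 genes, and the largest cluster, on chromosome 2 (chr2:85330967-90401674), only 7 among 225 genes. The largest Olfr cluster with 0 member regions had 24 genes (chr11:58454915-59614225), and for Vmn1r it had 8 (chr6:66552183-66805332, Vmn1r32 to Vmn1r39) and for Vmn2r 2 (chr14:51411001-51461293). A cluster without a member region was not free of the mark. Regions under 30 kb in at least 2 libraries covered 33.7% of that Vmn1r cluster, between its genes, and 5.97% of the Olfr one.

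Across clusters of at least 5 genes, such regions covered 18.1% of the Olfr cluster span, 28.0% of the Vmn1r span and 19.7% of the Vmn2r span. Set beside the 9.71%, 14.4% and 18.8% of gene sequence, the Olfr and Vmn1r genes were covered less than the clusters they stand in, while Vmn2r genes and clusters were covered about alike. In clusters of at least 10 genes, the outermost 2 genes on either side carried member regions about as often as those inside: 7.95% against 7.35% for Olfr and 21.4% against 22.7% for Vmn1r. For Vmn2r, 5 of 16 outer genes (31.3%) and 23 of 56 inner genes (41.1%) did.

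Promoter windows were available for 1254 of the 1467 receptor genes, and likeness among them differed by family. Identity, from the edit distance between windows, was taken to the closest other window of the family. For Vmn1r windows under a member region the median was 98.3% and 24 of 35 reached at least 90%, of which 14 were identical to another. Vmn1r windows under regions of 30 kb or more had a median of 100%, and those with no region 78.7%. Vmn2r windows showed 92.5% under member regions, 94.7% under the longer ones and 88.7% with none. Olfr windows were much less alike, with 59.3%, 71.5% and 56.3%. Windows of 1 cluster share ancestry and are not independent, so these medians carry no test.

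**Figure D3:**
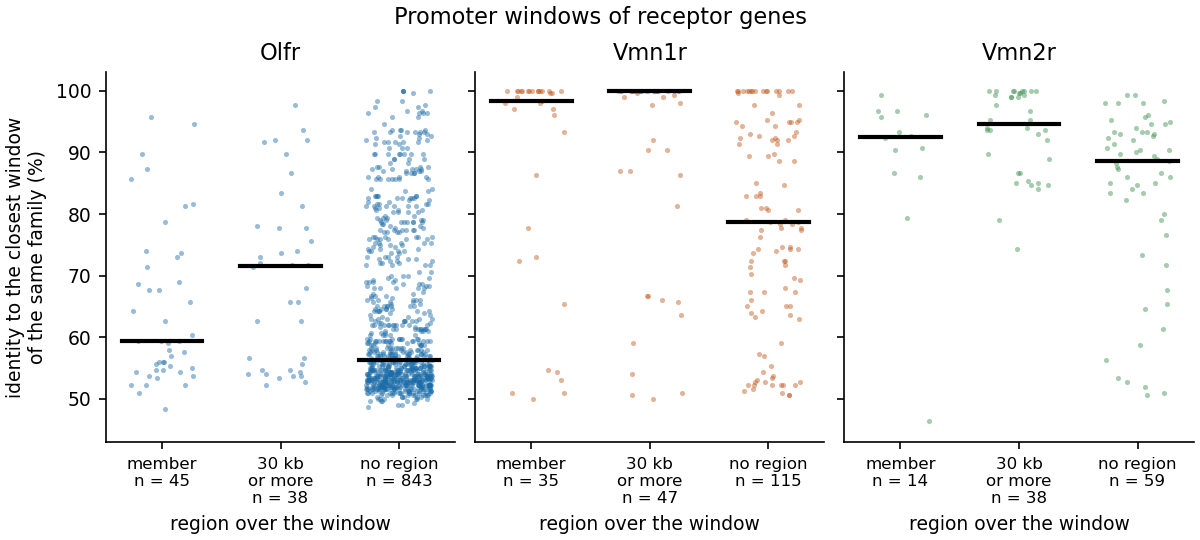
Each point is a 300-base promoter window: its identity to the closest other window of the family (y axis, %) by the kind of region over it (x axis), with black lines at the medians. Vmn1r windows under member regions sit at a median of 98.3% and those without a region at 78.7%.

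Receptor promoters were AT-rich whether marked or not. Windows under a member region had a median GC content of 34% for Olfr, 36.7% for Vmn1r and 39% for Vmn2r, against 35.3%, 35.3% and 38% with no region and 53% over all promoters. Their median CpG counts were 1, 2 and 2, against 7 over all promoters. The motif TAATTA, the core bound by homeodomain factors such as Lhx2, was searched on both strands with overlaps allowed. It occurred in 9 of 45 Olfr windows under a member region (20%) and 160 of 843 with none, against 5.27% of all promoters. For Vmn1r it stood in 1 of 35 and 10 of 115, and for Vmn2r in 2 of 14 and 15 of 59. CCCNNGGG, a core like that of Ebf factors, was in 0 of 45, 0 of 35 and 0 of 14 windows under a member region and in 13.9% of all promoters. It was in 19 of 38 Vmn2r windows under regions of 30 kb or more and in 3 of 59 with none. TATAAA was in 40%, 37.1% and 7.14% of member windows of Olfr, Vmn1r and Vmn2r, against 13.6% of all promoters.

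The libraries labelled DOX can be tested against the controls on these regions, since the label played no part in choosing them. The titles of the DOX libraries also carry D2, D3 or Er71-Flag, and those of the controls carry none of these. Whatever these terms stand for cannot be told apart from DOX in the ChIP comparisons. DOX libraries called 205, 161 and 164 of the 224 regions and controls 167, 203 and 200. The groups overlapped, with means of 177 ± 24.6 and 190 ± 20.0 (SD, n = 3 each), a difference of −13.3 (two-sided exact permutation test, p = 0.5). Olfr regions were called at 83, 70 and 69 with DOX and 67, 79 and 76 in controls, and Vmn2r regions at 79, 63 and 63 against 63, 77 and 77. Vmn1r regions were called at 43, 28 and 32 against 37, 47 and 47, where DOX replicates 2 and 3 were lowest (two-sided exact permutation test with n = 3 each, p = 0.2). The length covered within member regions was 1637400, 1245400 and 994200 bp with DOX and 1280200, 1957400 and 1711200 bp in controls (exact permutation p = 0.2). With 3 libraries against 3, the smallest p possible is 0.1.

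**Figure D4:**
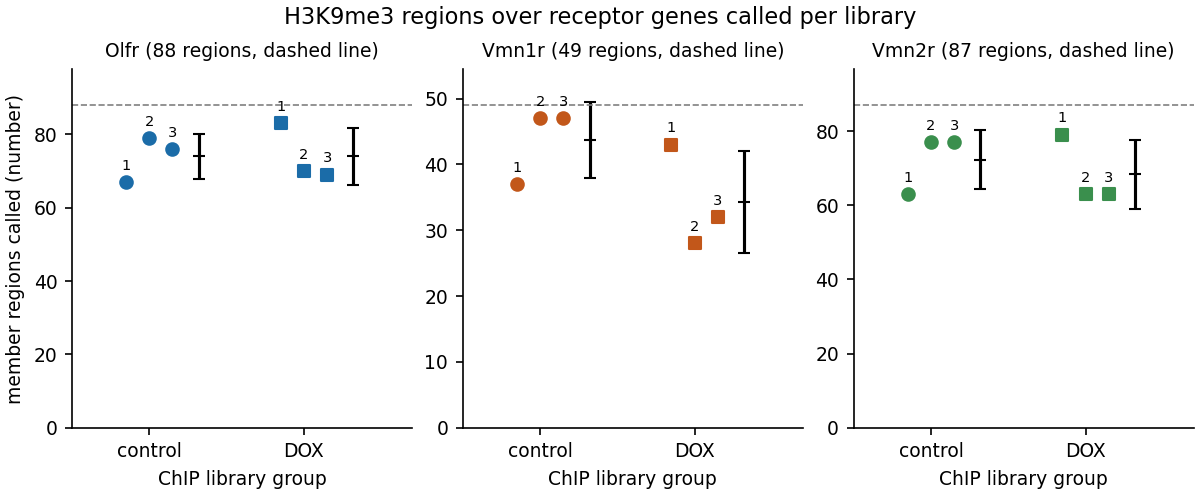
Member regions called in each ChIP library (y axis, number), numbered by replicate, for the 3 families. Bars show mean and SD of 3 libraries, and dashed lines the number of member regions; for Vmn1r the DOX libraries called 43, 28 and 32 and the controls 37, 47 and 47.

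Libraries differed in how many regions they held at all, from 37129 in control replicate 2 to 50838 in DOX replicate 1. As a share of the regions of the same kind that a library called, member regions made up 0.671, 0.624 and 0.646% with DOX and 0.697, 0.774 and 0.777% in controls. On this scale all 3 DOX libraries were below all 3 controls, by 0.103 percentage points, with the smallest p the design allows (two-sided exact permutation test, n = 3 each, p = 0.1). The number of regions of the same kind called, which is the base of this share, was 30563, 25816 and 25395 with DOX and 23948, 26212 and 25743 in controls (two-sided exact permutation test, n = 3 each, p = 0.5). DOX replicate 1 was above the controls, and DOX replicates 2 and 3 lay within their range.

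Of the 127 member regions called in all 6 libraries, 0 passed limma's test of log2 enrichment, DOX against control, with adjustment over 16627 regions, and the background was 0% in either direction. At an unadjusted p under 0.05 stood 8 of 127 (6.30%), close to 998 of 16627 (6.00%). The median difference was 0.06 for member regions and 0.05 for all. The constants subtracted in the deposited values differed by group. They were −0.207, −0.212 and −0.194 with DOX and −0.010, 0.260 and 0.168 in controls, so both medians depend on that shift. The value tested averaged only the parts of a region that each library called. A change in the length covered, or a region lost from a library, could therefore not show in this test. The smallest adjusted p among members, 0.598 by limma, belonged to a region over Vmn1r208 (chr13:22763201-22773400). It read 1.13, 1.28 and 1.37 with DOX and 0.32, 0.77 and 0.68 in controls, a difference of 0.67 ± 0.19 (SE). All DOX libraries were above all controls there, yet the region did not stand out among so many.

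Some regions were called in one group only. Among the 224, 4 were called in all 3 DOX libraries and no control, against a background of 1.65% of the 33539 regions of the kind. Another 4 were called in all 3 controls and no DOX library, against a background of 0.394%. With 8 regions in all, named here after their values were seen, these counts are small. The DOX-only regions lay over Vmn1r14, Vmn2r7, Olfr112 and Olfr1166, and the control-only ones over Vmn1r57, Vmn1r229, Vmn2r105 and Olfr1450. The strongest was the Vmn1r14 region (chr6:57227601-57232200), with a log2 enrichment of 2.76, 1.06 and 1.47 in the DOX libraries. The control-only regions had means between 0.85 and 1.00.

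RNA was read from 18 libraries with 40334911 to 68970038 counts each. Etv2 read 2.73, 3.02 and 3.05 CPM (counts scaled to the library total) in iETV2 controls and 19.7, 18.1 and 18.2 with DOX, and in the H188A line 0.67, 0.14 and 0.32 against 11.5, 18.6 and 15.5. In libraries labelled DKO, Kdm4a read 42.9, 46.9 and 42.0 CPM against 53.9, 54.4 and 55.7 in controls, and Kdm4c read 48.0, 42.7 and 46.0 against 30.2, 32.2 and 29.6. Neither targeted gene lost its counts, and Kdm4c was higher in the libraries labelled DKO. The labels do not say which part was deleted, so gene counts do not check the genotype. The libraries of that experiment also differed in cell type markers: all 6 embryonic stem cell markers checked (Pou5f1, Nanog, Sox2, Zfp42, Dppa5a, Esrrb) were higher in every DKO library, with sums of 1006 to 1058 CPM against 39.0 to 43.2, while of 3 feeder fibroblast markers Col1a1 read 13.6, 14.7 and 13.0 CPM against 394, 395 and 390 in controls, Col1a2 was also lower, and Thy1 was higher, with 8.35, 9.62 and 9.35 against 2.37, 2.69 and 2.97. The controls of the DKO experiment thus held little of the markers of the cell type on their label. Of 3 mesoderm markers, Kdr read 354, 352 and 352 CPM in these controls and 87.2, 80.7 and 84.9 in DKO. The others, T and Mixl1, were higher in every DKO library. Etv2 read 7.33, 8.17 and 8.65 CPM in these controls and 2.40, 3.25 and 3.12 in DKO.

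The defining markers of olfactory and vomeronasal neurons were at or near 0 in every group. Trpc2, the channel of vomeronasal neurons, had 0 counts in all 18 libraries, and H2-M10.3 reached at most 0.309 CPM. Of the other 3 vomeronasal markers, Gng8 read 0.387 to 1.69 CPM, Gnao1 6.70 to 22.0 and the widely expressed Gnai2 285 to 656, so the 5 summed to 293 to 674 CPM. Omp, Cnga2, Stoml3 and Rtp1, markers of mature olfactory neurons, summed to 0.290 to 2.40 CPM. With Gnal, Adcy3, Ano2 and Gng13, the 8 olfactory markers summed to 19.7 to 30.8 CPM. Of these 4, Adcy3 read 12.4 to 20.2 CPM and Gnal 4.08 to 7.04, while Ano2 read 0.087 to 2.45 and Gng13 0.270 to 0.793. Whole families were faint. The 1107 Olfr genes in the tables summed to 56.3, 39.8 and 115 CPM in iETV2 controls and 60.6, 71.7 and 122 with DOX. In bulk samples, fewer cells of a type and less RNA per cell cannot be told apart.

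The summed receptor level varied widely between libraries of 1 group. The 3 H188A controls read 547, 168 and 35.3 CPM over all receptor genes, a 15.5-fold range among samples with 1 label, against 27.5, 75.3 and 23.5 with DOX (two-sided exact permutation test with n = 3 each, p = 0.2). Vmn2r alone summed to 90.3, 25.6 and 2.89 CPM in those controls and Vmn1r to 77.1, 22.8 and 3.12. The spread was not particular to the Olfr, Vmn1r and Vmn2r families. Tas2r, Taar, Krtap, Defa and Defb genes, of other tandem families, together summed to 19.5, 6.21 and 2.02 CPM in the same controls. The number of genes of any kind with a count moved with these sums, with 47063, 42843 and 29384 in the H188A controls. In 4 of the 6 groups the libraries had the same order by both measures, and in 5 the library with the highest receptor sum also had the most genes with a count. The part of RNA or library quality in the receptor sums was not tested.

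**Figure D5:**
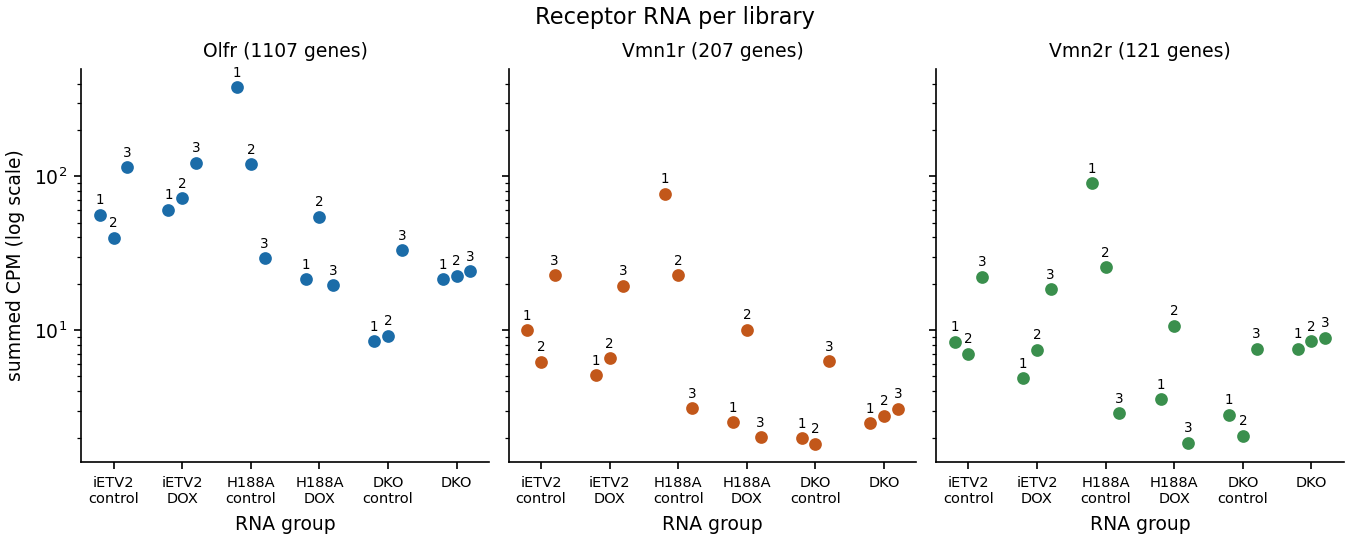
Summed RNA of each receptor family (y axis, CPM, log scale) in 18 libraries, numbered by replicate, in 6 groups. H188A control replicate 1 is the highest point in every panel, with 380 CPM for Olfr, 77.1 for Vmn1r and 90.3 for Vmn2r.

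Receptor RNA was low with and without a member region. Over the 18 libraries, the mean CPM per gene had a median of 0.032 for 83 Olfr genes under a member region and 0.035 for 959 with none. For Vmn2r the medians were 0.105 for 54 genes and 0.091 for 20. Vmn1r genes were lower under a member region, with a median of 0.011 for 45 genes against 0.048 for 115 with none, and 13 of the 45 (28.9%) had 0 counts in every library against 12.2%. Vmn1r genes under a region of 30 kb or more had a median of 0.030, and 33.3% of them had 0 counts in every library. For 34 Vmn2r genes under such longer regions the median was 0.019. Of these, 11.8% had 0 counts in every library, against 0% of those with no region. For 41 Olfr genes under longer regions the median was 0.028, and 2.44% had 0 counts throughout, against 0.417% with no region. These differences were not tested. Many Vmn1r promoter windows under either kind of region had a near-identical copy, and no source says how reads shared between copies were counted. Of the 15 receptor genes under the regions named above for strength or length, 13 were in the tables. None of these passed the filter on low counts in any comparison. The highest, Vmn2r59, reached 1.88 CPM, in H188A control replicate 1, and Vmn1r149 had 0 counts throughout.

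Few receptor genes were called with DOX in the iETV2 line. Most of those tested had low counts and a wide SE, such as 0.65 for Olfr983 and 0.78 for Vmn2r2, so moderate changes could go uncalled. Of 61 receptor genes that passed the filter, 2 rose and 2 fell by edgeR's quasi-likelihood test with Benjamini-Hochberg adjustment, against a background of 13.7% of genes that rose and 13.3% that fell. Olfr539 had the highest mean CPM of the Olfr genes over the 18 libraries. It read 13.9, 16.6 and 13.6 CPM in controls and 35.4, 39.2 and 34.0 with DOX, and rose by 1.31 ± 0.10 on the log2 scale (SE, edgeR adjusted p = 3.25e-08). Olfr45 rose from 0.45, 0.82 and 0.82 CPM to 2.83, 2.52 and 2.69, by 1.96 ± 0.27 (edgeR adjusted p = 4.01e-05). For both genes all DOX libraries were above all controls, and neither lay under a region. Olfr920 read 1.51, 1.06 and 0.85 CPM in controls and 0.44, 0.44 and 0.44 with DOX, and fell by 1.37 on the log2 scale (SE 0.39, edgeR adjusted p = 0.0145).

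The other gene that fell was Vmn1r14, which lies under a member region. Its controls read 1.15, 1.09 and 1.13 CPM and the DOX libraries 0.35, 0.37 and 0.42, so the groups were far apart. It fell by 1.55 on the log2 scale (SE 0.38, edgeR adjusted p = 0.00553). This is the gene whose region was called in 3 of 3 DOX and 0 of 3 control ChIP libraries. ChIP and RNA were separate samples and the ChIP labels name no line, so the values stand side by side and their relation was not tested. In the H188A line Vmn1r14 read 1.66, 0.90 and 0.86 CPM in controls and 0.41, 0.82 and 0.84 with DOX, where every DOX library was below every control but it did not pass the test.

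In the H188A line, 52 receptor genes passed the filter and 1 fell, against a background of 2.22% of genes that rose and 0.801% that fell. The gene was Olfr836, with 4.17, 4.35 and 3.61 CPM in controls and 2.30, 2.56 and 2.01 with DOX, a fall of 0.77 on the log2 scale (SE 0.16, edgeR adjusted p = 0.0383). The count rested on single libraries: leaving out control replicate 3, the control with the lowest receptor sum, gave 89 genes that fell of 236 tested, and leaving out any other library gave 0. The median log2 change over the 52 was −1.60, and 15 had an unadjusted p under 0.05, all lower with DOX. Control replicates 1 and 2 had the highest receptor sums of that line. A gene could pass the filter largely through these controls, as did Vmn2r114, with 3.20, 1.41 and 0 CPM against 0, 0.22 and 0. The direction of the median and of the unadjusted calls is therefore partly set by the filter. Whether DOX acted differently on receptor genes in the iETV2 and H188A lines was not tested.

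In the DKO comparison 21 receptor genes passed the filter, 17 rose and 0 fell (0 also at an unadjusted p under 0.05 by edgeR, and 0 by DESeq2), against a background of 35.6% that rose and 33.7% that fell. Without the filter, 23 rose and 8 fell of 1024 tested, and 4 of the 6 fits that left out 1 library called 1 gene that fell. Most receptor genes were too low to test: a gene near 0 in controls passed the filter only through the DKO libraries, so the direction of these counts is partly set by the filter. By family, 13 of 15 Olfr, 1 of 2 Vmn1r and 3 of 4 Vmn2r genes rose. The median log2 change, which the filter affects in the same way, was 2.37, also with the 2 genes absent from the controls set at their lower bound.

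Olfr920 read 0.59, 0.73 and 0.49 CPM in the DKO controls and 4.16, 4.31 and 3.96 in the libraries labelled DKO, and rose by 2.66 ± 0.21 on the log2 scale (SE, edgeR adjusted p = 2.82e-10). Vmn2r1, the Vmn2r gene with the highest mean CPM, lies under 3 member regions on chromosome 3, at chr3:64163001-64169600, chr3:64170401-64183200 and chr3:64200001-64208600. It read 0.99, 0.67 and 0.68 CPM against 4.07, 4.57 and 4.55, a rise of 2.37 ± 0.20 (edgeR adjusted p = 1.08e-09). Olfr539 rose by 2.55 ± 0.23 (edgeR adjusted p = 1.81e-09), and Olfr836 read 0.02, 0.04 and 0.02 CPM against 0.51, 0.48 and 0.57. Each of these 4 genes had all DKO libraries far above all controls. Olfr836, near 0 in controls, passed the filter only through the DKO libraries.

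Olfr985 and Vmn2r62 had 0 counts in the 3 controls, so they passed the filter only through the DKO libraries and could be called only as higher. Set against a floor of 3 counts over the control group, Olfr985 was at least 21.1-fold higher in the libraries labelled DKO and Vmn2r62 at least 20.7-fold. Vmn2r62, which lies under member regions at chr7:42755401-42765600 and chr7:42768801-42788200, is named because it is the other called gene with a member region. Vmn1r90, under a region of 30 kb or more, read 0.16, 0 and 0.02 CPM against 1.04, 0.92 and 0.93. It too passed the filter through the DKO libraries. Summed over the family, Vmn2r RNA read 2.82, 2.06 and 7.56 CPM in controls and 7.58, 8.49 and 8.95 in the libraries labelled DKO, just without overlap (two-sided exact permutation test with n = 3 each, p = 0.1, the smallest possible). Most of that difference was Vmn2r1: without it the sums were 1.83, 1.39 and 6.88 in controls and 3.51, 3.92 and 4.40 in DKO, which overlapped. Olfr sums overlapped, with 8.44, 9.17 and 33.0 against 21.4, 22.5 and 24.2. The DKO libraries and their controls differed in the cell type markers given above, so genotype and cell state cannot be told apart here.

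The remaining genes with the highest mean CPM of their families followed the library rather than the group. Vmn1r55, with no region over it, read 2.38, 0.92 and 0 CPM in the H188A controls, and Vmn2r53, under a region of 30 kb or more, read 5.83, 1.58 and 0.06. Vmn2r120, with no region, read 2.88, 0.64 and 0.03. In all 3, H188A control replicate 1 was the highest of the 18 libraries.

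Genes of receptor signalling and choice were read from lists set for this purpose, whose counts stand beside 13.7% of all tested genes that rose and 13.3% that fell in iETV2, 2.22% and 0.801% in the H188A line, and 35.6% and 33.7% in DKO. Of 12 tested genes of olfactory signalling, 1 passed the test with DOX in iETV2, Adcy3, the adenylyl cyclase of olfactory cilia, which rose, and in DKO 3 of 11 rose and 6 fell, where 35.6% and 33.7% of all genes did. Cngb1, a subunit of the olfactory cyclic-nucleotide channel, rose by 1.73 ± 0.24 in DKO (edgeR adjusted p = 1.42e-06), while Ano2, the calcium-gated chloride channel of cilia, fell by 2.74 (SE 0.42, edgeR adjusted p = 5.85e-06). Of 17 regulators of receptor choice, 4 rose and 4 fell with DOX in iETV2, 1 rose and 1 fell in the H188A line, and 2 rose and 12 fell in DKO. Ebf1, a transcription factor whose family binds olfactory receptor promoters, rose in all 3 comparisons: by 1.02 ± 0.10 in iETV2, 0.93 ± 0.07 in the H188A line and 2.61 ± 0.12 in DKO. Other Ebf genes of the list went the other way where they passed the test. Ebf3 fell by 1.15 in the H188A line (SE 0.18) and by 1.73 in DKO (SE 0.17). Ebf4 fell by 0.72 in iETV2 (SE 0.13), and Ebf2 passed in no comparison.

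Of 8 tested genes of vomeronasal signalling, 1 rose and 2 fell in iETV2, 2 passed in the H188A line, both higher, and 3 rose and 3 fell in DKO, shares near those of all genes there (35.6% and 33.7%). Gnao1, the G-protein subunit that couples Vmn2r receptors, fell by 1.10 with DOX in iETV2 (SE 0.10, edgeR adjusted p = 3.07e-07), from 16.8, 18.1 and 17.7 CPM to 7.29, 9.19 and 7.84. Of 23 enzymes that write H3K9 methylation and their partners, 5 rose and 2 fell in iETV2, beside 13.7% and 13.3% of all genes, and 12 rose and 9 fell in DKO, beside 35.6% and 33.7%. Suv39h1, an enzyme that trimethylates H3K9, rose by 0.60 ± 0.07 in iETV2 and fell by 1.39 in DKO (SE 0.04). Setdb1, another such enzyme, rose by 0.20 ± 0.04 in DKO. Of 11 H3K9 demethylases, 5 passed with DOX in iETV2, all of them lower (13.3% of all genes fell), among them Kdm3a (by 0.65, SE 0.07) and Kdm4c (by 0.44, SE 0.07), and in DKO 7 rose and 4 fell, beside the same 35.6% and 33.7%. Over all tested genes the median log2 change was 0.00, −0.01 and 0.04 in the 3 comparisons.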

How the data were processed

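RNA-seq counts per Ensembl gene, 1 deposited table per library, and H3K9me3 region lists, 1 per ChIP library, were used. Input libraries have no regions of their own and were not used. Per the file headers, the authors deposited for each region the ChIP and input counts, a p-value with its FDR, a log2 fold change and a score. The deposited log2 fold change equals log2 of ChIP over input counts less a library-wide constant, the score repeats it on another scale and was not used further, and regions consist of 200 bp windows. The submitters' processing notes name Bowtie, ChIPseeker, DiffBind, DESeq2 1.18.1, HTSeq 2.0.3, featureCounts 2.0.6, StringTie 2.2.1, Picard 3.0.0 and STAR 2.7.10b, and the builds mm10 and GRCm38. The tool behind each file, the region caller and the strand setting are not given in the sources used here.

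Regions were merged at 1 bp of shared sequence and intersected with RefSeq gene spans (GRCm38.p6). A region's value per library was the length-weighted mean of its log2 fold changes. Promoter identity is 1 minus the edit distance over the window's 300 bases (edlib 1.3.9.post1). Python 3.11.15 with numpy 2.4.6, pandas 2.3.3 and matplotlib 3.10.9 was used. Exact permutation tests, two-sided, compared the libraries. Log2 enrichment was tested with limma 3.58.1 (eBayes with trend) in R 4.3.3 over regions called in all 6 libraries. Counts were tested with edgeR 4.0.16 (TMM, filterByExpr, glmQLFit, glmQLFTest) on the 6 libraries of each comparison, adjusted by Benjamini-Hochberg at 0.05. SE is the log2 change over the square root of F. CPM are scaled by library totals, without TMM factors. Scripts were tested on simulated data.

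The member regions, gene lists and tests were chosen with earlier results of these data known. Named were, per family, the 4 regions called in all 6 libraries with the highest mean log2 fold change, the longest region, the 4 clusters with the most member regions and the largest without any, the 3 genes with the highest mean CPM and up to 5 called genes per direction and comparison. Alternatives covered the overlap, library, length and FDR limits, gene flanks, cluster gap, DESeq2 1.42.0, no count filter, the replicate block and each library left out.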

Additional observations from a re-analysis of the deposited data

How the results depend on the processing

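The order Olfr, Vmn1r, Vmn2r of the share of genes under a region held under every alternative, while the shares themselves moved. Calling in all 6 libraries gave 4.77, 10.8 and 30.4% of Olfr, Vmn1r and Vmn2r genes, no length limit 11.3, 45.0 and 72.8%, a limit of 10 kb 4.23, 6.93 and 31.2%, and gene spans widened by 5 kb 32.9, 45.5 and 56.8%. The other 9 alternatives moved each share by less than 1 SD between libraries. The DOX difference in member regions called kept its sign in 10 of 10 alternatives, with two-sided exact permutation p from 0.1 to 0.8. The alternatives that left out 1 library share the others, so the kept sign is not separate support. In 10 of 10 alternatives limma called no member region. Cluster gaps of 500 kb and 2 Mb gave 53 and 41 Olfr, 17 and 14 Vmn1r and 20 and 15 Vmn2r clusters. Called receptor genes numbered 3 to 6 with 1 iETV2 library left out and 14 to 20 with 1 DKO library left out. In the H188A line, DESeq2 called 4, no count filter 72 and the fits that left out 1 library 0 to 89. Without the count filter, 31 were called in DKO, 23 higher and 8 lower. With the replicate block, edgeR called 5 receptor genes in iETV2, 0 in the H188A line and 15 in DKO. Over all genes, the block moved calls from 5939 to 8380 in iETV2, 637 to 263 in the H188A line and 14153 to 13926 in DKO. After each group's mean was subtracted, same-numbered libraries correlated at −0.01 to 0.56 in iETV2 and −0.21 to 0.35 in the H188A line. Differently numbered libraries correlated at −0.59 to 0.45 and −0.52 to 0.49, so the numbers were not taken as pairs. The cause of these moves was not tested. At this depth, 61, 52 and 21 of the 1435 receptor genes in the tables had enough counts to be tested in the 3 comparisons.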

Other observations

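Other gene families were read the same way. Regions under 30 kb called in at least 2 libraries lay over 0 of 15 trace amine receptor genes (Taar), 0 of 35 bitter taste receptor genes (Tas2r) and 0 of 39 Hox genes. They lay over 3 of 8 formyl peptide receptor genes (Fpr), 10 of 22 Ugt genes, 9 of 56 keratin-associated protein genes (Krtap), 6 of 42 beta-defensin genes (Defb) and 128 of 365 genes named Zfp plus a number. They also lay over 45 of 134 Cyp genes, 17 of 68 Serpin genes, 15 of 58 genes of the protocadherin (Pcdh) clusters and 2 of 28 Defa genes. Per base of gene, such regions covered 15.3% of Fpr, 18.0% of Ugt, 14.6% of Krtap, 13.9% of Defb and 8.96% of Zfp genes. For Cyp, Serpin, Pcdh and Defa genes these values were 15.6%, 7.63%, 6.30% and 7.76%. Median gene spans ranged from 833 bp for Krtap to 88176.5 bp for the Pcdh clusters, so shares of genes are not comparable between families of different length.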
